A study of Homo sapiens with 9 samples.

Results

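Cells given a control mimic were compared with cells given only the lipid that carries it, in PANC-1, an established epithelial line from a human pancreatic carcinoma. The comparison was between 6 of the 9 arrays of the series. The 3 arrays titled NT came from cells that received Lipofectamine RNAiMAX without a mimic, which the labels call non-transfected. The 3 arrays titled NC came from cells that received 20 nM of a mirVana negative control mimic with the same lipid. The other 3 arrays came from cells given 20 nM of a mirVana miR-520f mimic. They served to place each gene that differed between NC and NT. They also entered the choice of probe sets and the estimate of the spread behind every p-value. All cells grew in RPMI-1640 medium with fetal calf serum and glutamine, and RNA was taken 72 h after transfection. Genes were followed through the probe sets that carry a single gene symbol, the brightest over all arrays for each symbol, which gave 14232 genes from 22011 probe sets. Replicates are termed biological, with no word on how cultures were kept apart, so p-values measure only the spread between these arrays. PANC-1 is a single line, and whether other lines respond alike is not covered by these arrays.

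A microRNA mimic is a short double-stranded RNA whose guide strand is loaded into an Argonaute protein and pairs, through the seed near its 5′ end, with messenger RNAs that are then repressed. A negative control mimic has the same build and a sequence chosen to match no intended target, but it still passes through the lipid, the endosome and the silencing complex. Cells can also detect double-stranded RNA through RIG-I, MDA5 and PKR, a route that normally raises interferons and the genes they induce. Control mimics are used so that these shared steps cancel when a microRNA is compared with them.

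The miR-520f gene encodes a pair of mature strands, shown because genes back at the NT level and genes moved alike were told apart by the mimic that copies this microRNA. The labels do not name the arm that was used, and the sequence of the control mimic is not given in the sources used here. Capitals mark the seed, bases 2 to 8 from the 5′ end, and the sequences are RefSeq's on the plus strand of GRCh38.p14, at chr19:53682213-53682234 and chr19:53682173-53682194.
hsa-miR-520f-3p: aAGUGCUUccuuuuagaggguu
hsa-miR-520f-5p: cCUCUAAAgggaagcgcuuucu

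Values are RMA log2 intensities, on which a difference of 1 is a doubling of the signal, and they ran from 2.23 to 13.6 over all arrays. A difference is always NC minus NT unless another pair is named, values for single arrays are given in the order of replicates 1, 2 and 3, and n is 3 arrays a group. The keratins KRT8 (mean 11.62 on NT arrays), KRT18 (8.74) and KRT19 (8.90) and the intermediate filament gene VIM (12.11) were high, as was the adhesion gene EPCAM (7.80), whereas KRT7, often used for ductal cells, was near the low end of the scale (3.46). Median levels of fibroblast, endothelial, immune and acinar or endocrine marker lists lay between 3.10 and 3.67 on every NT and NC array. Among their defining genes, PTPRC (3.08), PECAM1 (3.15), DCN (3.12) and CPA1 (3.18) were dim, but COL1A1 (8.17), CD68 (8.65) and THY1 (7.66) were not. NC replicate 1 stood farther from its group than any other array did from its own, with a root mean square deviation of 0.169 over the genes. In bulk RNA, a change in the share of cells in a state and a change in RNA per cell cannot be told apart.

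The control mimic changed a large part of the transcriptome, mostly by small amounts. At a Benjamini-Hochberg adjusted p under 0.05 in limma, a threshold at which a gene is called here, 2174 genes differed between NC and NT (15.3% of the genes tested). Of these, 996 were higher with the mimic (7.00%) and 1178 were lower (8.28%). With each array centred on its median, which shifts every difference by 0.042, the share of rises among the calls went from 45.8% to 56.3%, so neither direction prevailed under both scalings. The median size of a called difference was 0.48, and 121 genes (0.850%) were called at a difference of 1 or more, 49 of them higher and 72 lower. The 3 NC arrays lay entirely above or below the 3 NT arrays in 3847 genes (27.0%), among them 2160 of the 2174 called. An exact permutation test of 3 arrays against 3 cannot go below 0.10 (two-sided), so the fit across all genes is the test throughout. Without NT replicate 2 the number called was 1394, and 1249 genes (553 higher, 696 lower) were called in every one of the 9 fits that left out an array.

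The largest falls included genes of inflammation, growth factor signalling and the interferon response. CCL2, the chemokine that draws monocytes, showed the largest difference of all. Its level was 9.50, 9.62 and 9.72 on the NT arrays and 5.74, 6.93 and 6.83 on the NC arrays, a fall of 3.11 (SE 0.25, limma adjusted p = 3.5e-05), and with miR-520f it was 6.96, 6.62 and 6.95. Every array with either mimic lay far below every NT array, and NC replicate 1 was the lowest of the 9. PTPMT1, a mitochondrial phosphatase of cardiolipin synthesis, read 8.88, 8.71 and 8.74 on NT arrays and 5.96, 6.21 and 6.10 on NC arrays (difference -2.69, SE 0.092, limma adjusted p = 1.65e-07). The miR-520f arrays, at 8.72, 8.94 and 8.72, overlapped the NT arrays. MET, the receptor of hepatocyte growth factor, went from 8.32, 8.27 and 8.23 to 6.30, 6.29 and 5.96 (difference -2.09, SE 0.11, limma adjusted p = 3.84e-06) and stood at 7.94, 7.70 and 8.06 with miR-520f. For MET the miR-520f arrays lay above the NC arrays and below the NT arrays. SERPINA3, an acute-phase protease inhibitor, fell from 7.49, 7.38 and 7.45 to 5.40, 5.55 and 5.39 (difference -1.99, SE 0.073, limma adjusted p = 1.82e-07), and the miR-520f arrays were lower still at 4.04, 4.07 and 4.15. The Wnt antagonist DKK1 differed by -1.67, the methionine sulfoxide reductase MSRB3 by -1.59, the Rac1-binding gene CYRIB by -1.79, SLC35D4 by -1.74, SUSD2 by -1.61 and FAM32A by -1.57. The remaining members of the 12 largest falls, IFIT1 and IFIT2, belong to the interferon genes described further on.

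Cell cycle and RNA-processing genes stood among the largest rises. CCND2, cyclin D2 of the G1 phase, was 5.53, 5.21 and 4.91 on NT arrays and 6.54, 7.20 and 7.03 on NC arrays, a rise of 1.71 (SE 0.19, limma adjusted p = 0.000182). The miR-520f arrays were 4.28, 4.54 and 4.14, below all NT arrays, so the mimics moved CCND2 in opposite directions. SKP2, the ubiquitin ligase subunit that targets p27 for degradation, read 6.06, 5.68 and 5.72 with lipid alone and 7.58, 7.54 and 7.32 with the control mimic (difference 1.66, SE 0.11, limma adjusted p = 1.06e-05). With miR-520f it was 7.27, 7.20 and 7.28, close to the NC arrays. DCP2, the enzyme that removes the cap of messenger RNAs, was 6.82, 6.70 and 6.70 and 8.34, 8.22 and 8.36 in the same order (difference 1.57, SE 0.098, limma adjusted p = 8.63e-06), and 9.39, 9.27 and 9.66 with miR-520f. The serine/threonine kinase gene STK40 rose by 1.71, the Polycomb-group gene SCML2 by 1.64, the xylosyltransferase GXYLT1 by 1.63 and DDAH1, which degrades asymmetric dimethylarginine, by 1.47. MICB, a stress-induced ligand of the NKG2D receptor of natural killer cells, rose by 1.52. ACBD7 (1.34), TMEM40 (1.31), the histone gene H2BC3 (1.36) and DICER1 (1.31) complete the 12 largest rises. H2BC3 was no longer called without NT replicate 2, NC replicate 1 or NC replicate 2, without moderation of the spread, or with all probe sets in the fit, and its highest limma adjusted p over all alternatives was 0.144.

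**Figure D1:**
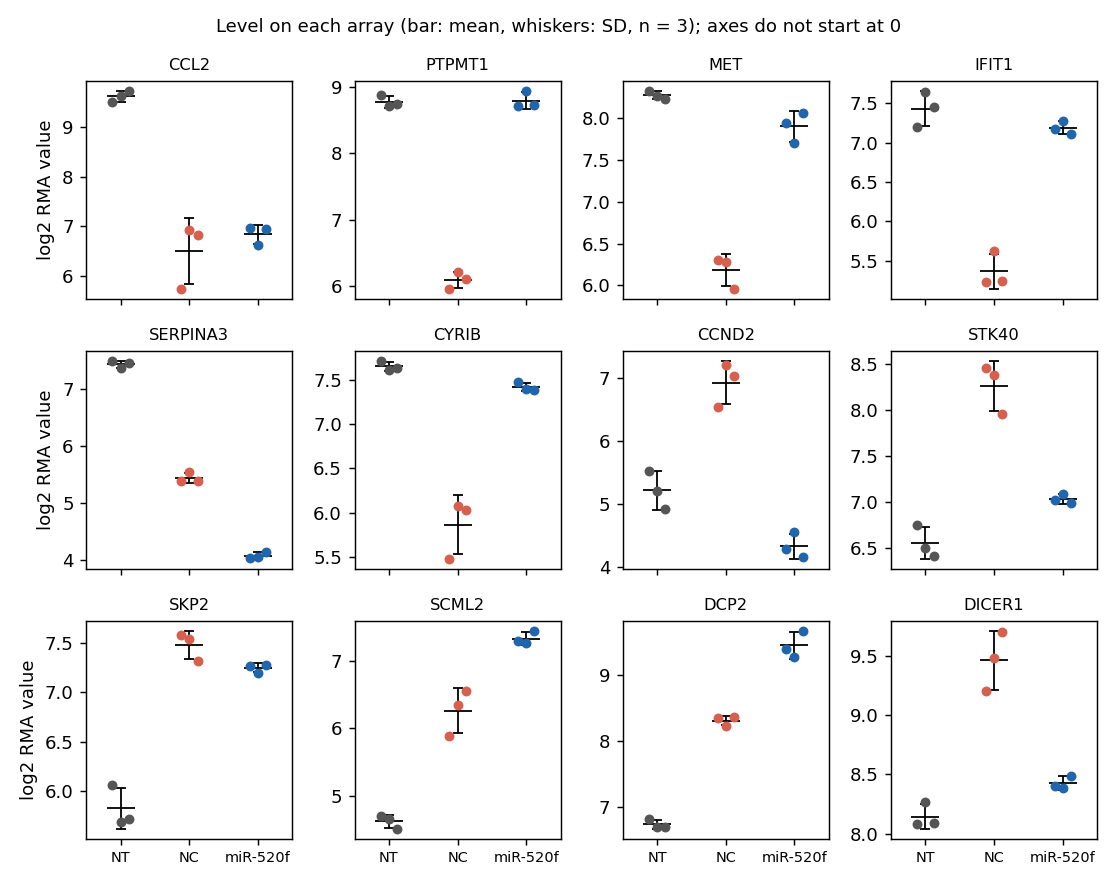
RMA log2 level of 12 genes on each array (points), grouped as NT, NC and miR-520f, with the mean (bar) and SD (whiskers) of 3 arrays; the vertical axes do not start at 0. CCL2 fell from a mean of 9.61 on NT to 6.50 on NC arrays and stayed low with miR-520f, whereas PTPMT1 fell to 6.09 with the control mimic and was at 8.79 with miR-520f.

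The miR-520f arrays split the 2174 genes into groups of similar size that did and did not follow the control mimic. A gene counted as back at the NT level when it was called between NC and NT, called in the opposite direction between miR-520f and NC, not called between miR-520f and NT, and when miR-520f differed from NT by at most 0.5 of the NC shift. By this rule 609 genes were back (4.28% of the genes tested), 219 that had risen with the control mimic and 390 that had fallen. A gene counted as moved alike when it was called in the same direction with both mimics against NT, not called between the mimics, and when the mimics differed by at most 0.5 of the NC shift. This held for 574 genes (4.03%), 305 rises and 269 falls. Of the rest, 62 genes (0.436%) lay between NT and NC on the miR-520f arrays, 304 (2.14%) went beyond NC in the same direction, 295 (2.07%) were called against NT in the opposite direction, and 330 (2.32%) met none of these rules. The comparisons share the NT or the NC arrays, so these counts describe positions and are not independent evidence.

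**Figure D2:**
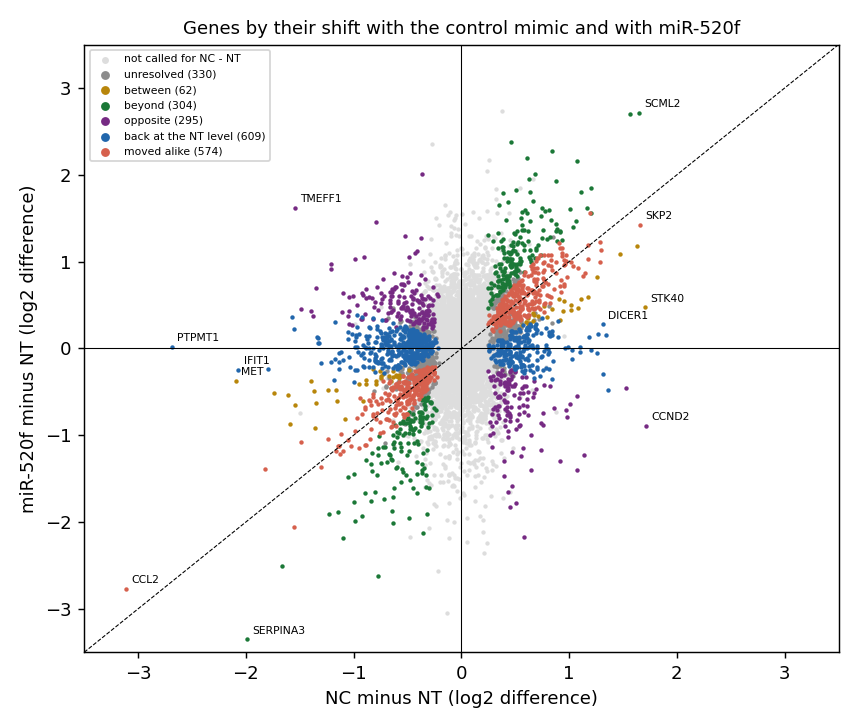
Each point is a gene, placed by its NC minus NT difference (horizontal, log2) and its miR-520f minus NT difference (vertical, log2), coloured, where it was called between NC and NT, by where the miR-520f arrays put it, and pale grey otherwise. By the rules that define them, the 609 genes back at the NT level lie along the horizontal line at 0 and the 574 genes moved alike along the diagonal.

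Both main groups had similar medians of size and, with rises and falls pooled, of brightness. The median size of the NC shift was 0.51 in genes back at the NT level and 0.50 in genes moved alike, and their median levels were 6.38 and 6.29. Rises had median levels of 6.78 and 6.75 in the same order, but falls had 6.22 and 5.56, so falls moved alike were dimmer. Falls were more common among genes back at the NT level, which took 33.1% of all falls and 22.0% of all rises, while genes moved alike took 22.8% of the falls and 30.6% of the rises. The class rules themselves hold the share of the NC shift kept on miR-520f arrays around 0 or around 1. Its median was -0.042 in genes back at the NT level and 1.01 in genes moved alike. Membership was less firm than the calls themselves: 262 of the 609 and 234 of the 574 kept their group in all 9 fits that left out an array. Moves from back to alike in any of these fits were seen in 6 genes and from alike to back in 5. Without NT replicate 2 the genes moved alike numbered 360.

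Among the largest changes that were back at the NT level with miR-520f were genes of calcium channels, of the endoplasmic reticulum and of ERK signalling. CACNB3, a subunit of voltage-gated calcium channels, was 6.43, 6.67 and 6.48 on NT, 4.84, 5.17 and 4.92 on NC and 6.78, 6.84 and 6.63 on miR-520f arrays. Its fall of 1.55 (SE 0.10, limma adjusted p = 1.08e-05) was absent from the miR-520f arrays, which overlapped NT. PDIA4, a disulfide isomerase of the endoplasmic reticulum, went from 8.25, 7.94 and 8.05 to 6.65, 7.10 and 6.48 and back to 8.29, 8.03 and 8.30 (NC minus NT -1.34, limma adjusted p = 0.000213). CALU, a calcium-binding protein of the same compartment, differed by -1.33 between NC and NT and by 0.058 between miR-520f and NT. BANF1, which binds DNA at the nuclear envelope, differed by -1.33 and 0.12 in the same order. It was dim, at 4.22, 4.50 and 4.04 on NT arrays, and near the low end of the scale on NC arrays (2.85, 3.04 and 2.87). Among the rises, the phosphatase gene DUSP5, which restrains ERK, read 7.01, 6.67 and 6.41 on NT, 7.88, 8.06 and 7.75 on NC and 6.77, 6.61 and 6.66 on miR-520f arrays. Its NC arrays lay above the other 6 without overlap (NC minus NT 1.21, SE 0.14, limma adjusted p = 0.000244). C2orf69 rose by 1.27 and KCTD20 by 1.18 with the control mimic, and stood 0.17 and 0.13 above NT with miR-520f.

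Genes moved alike by both mimics held interferon-induced genes among the falls and cell cycle genes among the rises. ARRB1, an arrestin that uncouples G protein-coupled receptors, was 7.42, 7.33 and 7.46 on NT, 6.03, 6.45 and 6.31 on NC and 6.28, 6.18 and 6.37 on miR-520f arrays. Both mimics left it about equally far below NT (differences -1.14 and -1.13). RASGEF1A, a Ras guanine nucleotide exchange factor, fell by 1.16 with the control mimic and by 1.19 with miR-520f, and PARP3, an ADP-ribosyltransferase of DNA repair, by 1.24 and 1.04. LIN28B, which blocks maturation of let-7 microRNAs, rose from 4.62, 4.35 and 4.38 to 5.73, 5.86 and 5.64 with the control mimic (difference 1.29, SE 0.11, limma adjusted p = 4.88e-05) and measured 5.55, 5.40 and 5.79 with miR-520f. HMGB2, a chromatin protein of dividing cells, read 9.07, 8.78 and 9.05 on NT, 10.29, 10.17 and 10.30 on NC and 10.02, 9.85 and 10.70 on miR-520f arrays. Its 6 mimic arrays all lay above the 3 NT arrays. The leukaemia inhibitory factor receptor gene LIFR rose by 1.18 and 1.19, and GGCT, of the glutathione cycle, by 1.19 and 1.56.

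Other genes kept moving or turned around with miR-520f. SCML2 and DCP2, both raised by the control mimic, were further up with miR-520f, by 2.71 and 2.70 against NT. DKK1 and SERPINA3 were further down, by 2.51 and 3.35. TMEFF1, a membrane protein with follistatin-like domains, was 4.89, 5.11 and 5.24 on NT, 3.49, 3.61 and 3.51 on NC and 6.73, 6.75 and 6.63 on miR-520f arrays, so that NC arrays lay below and miR-520f arrays above NT. The fall with the control mimic was 1.54 (SE 0.093, limma adjusted p = 7.29e-06), to a level toward the low end of the scale. The hydrolase gene CMBL turned the same way (-1.49 with the control mimic and 0.45 with miR-520f). TGFBR2, the type II receptor for TGF-beta, turned the other way, with 8.13, 8.10 and 8.02 on NT, 9.18, 9.24 and 9.06 on NC and 6.69, 6.57 and 6.78 on miR-520f arrays. With opposite signs, the distance between the mimics necessarily exceeds the distance of miR-520f from NT, -2.48 against -1.40 for TGFBR2.

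Most measured genes of DNA replication rose with the control mimic, and most of those that rose stayed up with miR-520f. Of 45 measured genes of the S phase list, 30 rose (66.7%) and 1 fell (2.22%), beside 7.00% rises and 8.28% falls over all genes. The list's median difference was 0.50, where the median of all genes was 0.0064. Relative to the NT means, the list's median on single arrays was 0.13, -0.10 and -0.042 on NT, 0.46, 0.44 and 0.46 on NC, and 0.69, 0.62 and 0.64 on miR-520f arrays. NC and NT arrays thus did not overlap in this median. DTL, an adaptor that directs licensing factors to degradation, rose from 7.75, 7.43 and 7.45 to 9.08, 8.68 and 8.72 (difference 1.28, SE 0.14, limma adjusted p = 0.000187). RPA2, of the complex that coats single-stranded DNA, rose by 1.18, the exonuclease gene EXO1 by 0.92 and the histone chaperone gene ASF1B by 0.84, while GINS3, of the replicative helicase, fell by 0.46. Of the 30 rises, 13 were moved alike, 11 went beyond NC with miR-520f and 4 were back at the NT level. Over all rises these shares were 30.6%, 17.4% and 22.0%. ASF1B counted as back, although its miR-520f arrays all lay below the NT arrays (miR-520f minus NT -0.35). Without moderation of the spread, 16 genes of the list rose.

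Rises also outnumbered falls among genes of mitosis. In the G2 and M phase list 25 of 53 measured genes rose (47.2%) and 1 fell (1.89%), beside 7.00% and 8.28% over all genes, with a median difference of 0.36. HMMR, a spindle protein, was 6.41, 6.21 and 6.31 on NT and 7.69, 7.27 and 7.39 on NC arrays (difference 1.15, SE 0.17, limma adjusted p = 0.00109). The kinetochore gene SPC25 rose by 1.09, cyclin A2 (CCNA2) by 1.04 and the centromere gene CENPK by 0.96, and BUB3, of the spindle checkpoint, fell by 0.53. The list's median was higher still with miR-520f, 0.66 against NT and 0.29 against NC. Of the 25 rises 12 were moved alike, 4 went beyond NC, 1 was back at the NT level, 1 was opposite and 7 were unresolved. Over all rises these shares were 30.6%, 17.4%, 22.0%, 12.75% and 14.7%. The count of rises dropped to 13 without NT replicate 2 and to 8 without moderation, whereas 48 of the 53 differences were above 0 irrespective of a call. Among G1 regulators and cell cycle inhibitors 7 of 20 rose (35.0%) and 1 fell (5.0%): CDK6, the partner of D-type cyclins, rose by 1.07 and was at 2.16 above NT with miR-520f, cyclin G1 (CCNG1) rose by 0.97, and the growth arrest gene GADD45B rose by 0.61 and was back at the NT level. MKI67, the Ki-67 gene, was not called (0.042, limma adjusted p = 0.914), nor was the p21 gene CDKN1A (-0.053, limma adjusted p = 0.926), and these genes were chosen with their values in view.

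Among histone genes that are expressed with DNA replication the calls were all rises with the control mimic, and most of those that rose were back at the NT level with miR-520f. Of 43 measured, 22 rose (51.2%) and 0 fell in limma, beside 7.00% rises and 8.28% falls over all genes. At an unadjusted p under 0.05 the counts were 33 and 0, where 3681 of all 14232 genes passed in either direction. Without moderation they were 8 and 0, beside 536 rises and 751 falls over all genes. Among the 22 rises 19 were back at the NT level, 0 were moved alike and 3 were unresolved, beside 22.0% of all rises back at the NT level and 30.6% moved alike. The list's median relative to the NT means was 0.16, -0.18 and -0.027 on NT arrays, 0.70, 0.42 and 0.39 on NC arrays, and -0.031, -0.14 and 0.047 on miR-520f arrays. All NC arrays lay above the other 6, with NC replicate 1 highest. Without NC replicate 1 the list had 14 rises and without NT replicate 2 it had 12. H4C2, a histone H4 gene, was 8.67, 7.83 and 8.06 on NT, 9.75, 9.29 and 9.30 on NC and 7.97, 8.0 and 8.43 on miR-520f arrays (NC minus NT 1.26, SE 0.21, limma adjusted p = 0.00225). The linker histone gene H1-5 rose by 1.03 and H1-2 by 0.96, and stood at -0.12 and 0.0064 against NT with miR-520f. Many histone genes are near-identical copies that probes may not separate, so the value of a single gene is uncertain and the genes are not independent.

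**Figure D3:**
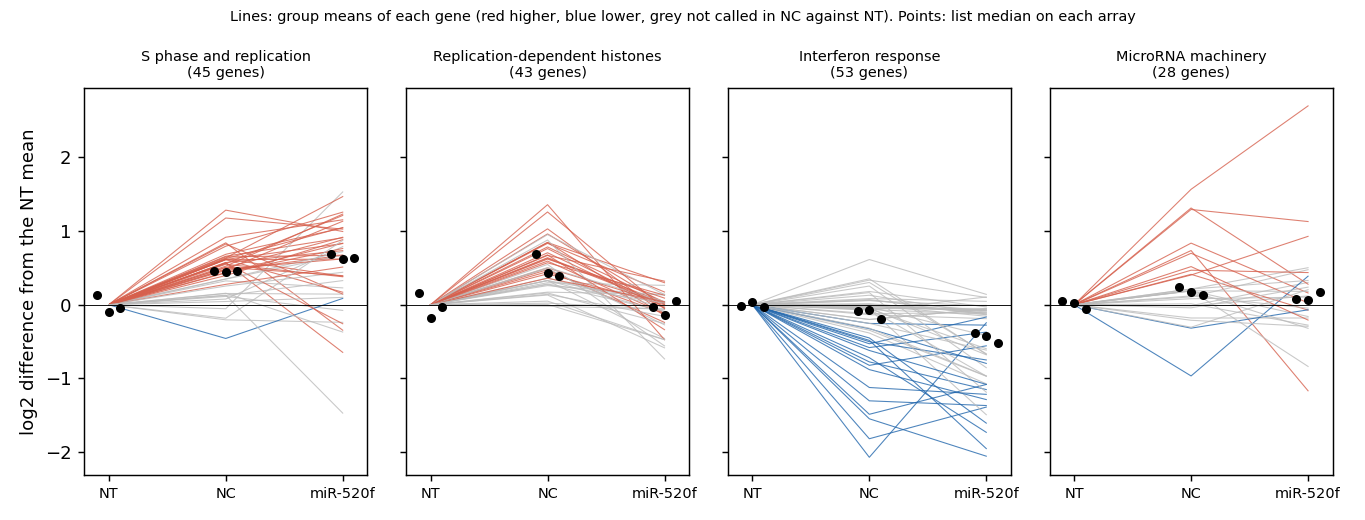
Group means of each gene in 4 lists, as the log2 difference from its NT mean (lines; red higher, blue lower, grey not called between NC and NT), with the list median on each array (points). The S phase medians were 0.44 to 0.46 on NC and 0.62 to 0.69 on miR-520f arrays, while the histone medians were 0.39 to 0.70 on NC and -0.14 to 0.047 on miR-520f arrays.

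Some interferon-induced genes fell with the control mimic, and most were not called. Of 53 measured, 18 fell (34.0%), 0 rose and 35 were not called in limma, beside 8.28% falls and 7.00% rises over all genes. At an unadjusted p under 0.05 the counts were 23 lower and 5 higher, where 3681 of all 14232 genes passed in either direction. Under other scalings or with an array left out, between 0 and 4 of these genes were called higher, the 4 without NC replicate 3. IFIT1, which binds foreign RNA ends and blocks their translation, was 7.20, 7.65 and 7.45 on NT and 5.23, 5.62 and 5.24 on NC arrays (difference -2.07, SE 0.13, limma adjusted p = 8.63e-06), and 7.17, 7.28 and 7.11 with miR-520f. The miR-520f arrays were back near the NT arrays for IFIT1. Its neighbours in the family were moved alike instead. IFIT2 was 6.84, 6.98 and 6.58 on NT, 4.62, 5.31 and 5.0 on NC and 5.29, 5.58 and 5.35 on miR-520f arrays, and IFIT3 was 5.18, 5.39 and 4.81, 3.74, 3.87 and 3.32 and 3.99, 4.43 and 3.71 in that order. On NC arrays IFIT3 was dim, toward the low end of the scale. IFI6, a mitochondrial interferon-induced protein, fell by 1.55 with the control mimic and by 2.06 with miR-520f. MX1, a GTPase that blocks influenza virus, fell by 1.30 and 1.37. ISG15, the ubiquitin-like modifier, differed from NT by -0.53 with the control mimic and by -0.17 with miR-520f. Of the 18 falls 8 were moved alike, 7 went further down with miR-520f, 2 were back at the NT level (IFIT1 and ISG15) and 1 was unresolved. Over all falls, 22.8% were moved alike, 11.1% went further and 33.1% were back. The list's median difference was -0.075, beside 0.0064 over all genes, and the median level of its members over all arrays was low (4.21). In a fit of only the 7116 genes brighter than the median of all genes (4.53), 1052 genes fell. They included 11 of the list, most of whose members were too dim for that fit.

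The promoters of 3 interferon genes that fell and of a replication and a histone gene that rose are shown as examples of called members of the interferon, S phase and histone lists. Each sequence is the 250 bases before the RefSeq start in GRCh38.p14, read 5′ to 3′ on the gene's strand, and capitals mark a match on either strand: 2 copies of GAAA with any 2 bases between them, the core of the interferon-stimulated response element, TTTCCCGC for E2F factors, or ATTTGCAT, the octamer bound by OCT1. The regions are chr10:89392373-89392622 (plus strand) for IFIT1, chr10:89327747-89327996 (plus) for IFIT3, chr1:27672193-27672442 (minus) for IFI6, chr6:52284743-52284992 (minus) for MCM3, a subunit of the replicative helicase, and chr6:26043714-26043963 (minus) for H2BC3. The genes were chosen after their values and matches were known.
IFIT1: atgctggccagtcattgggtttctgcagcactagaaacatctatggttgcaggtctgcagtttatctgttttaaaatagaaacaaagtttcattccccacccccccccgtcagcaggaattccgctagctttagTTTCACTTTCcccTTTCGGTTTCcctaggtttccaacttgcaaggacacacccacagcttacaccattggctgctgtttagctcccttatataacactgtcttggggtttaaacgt
IFIT3: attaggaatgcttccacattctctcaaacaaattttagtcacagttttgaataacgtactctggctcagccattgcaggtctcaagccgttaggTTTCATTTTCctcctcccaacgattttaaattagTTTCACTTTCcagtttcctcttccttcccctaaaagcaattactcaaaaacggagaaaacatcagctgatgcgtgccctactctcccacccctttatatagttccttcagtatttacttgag
IFI6: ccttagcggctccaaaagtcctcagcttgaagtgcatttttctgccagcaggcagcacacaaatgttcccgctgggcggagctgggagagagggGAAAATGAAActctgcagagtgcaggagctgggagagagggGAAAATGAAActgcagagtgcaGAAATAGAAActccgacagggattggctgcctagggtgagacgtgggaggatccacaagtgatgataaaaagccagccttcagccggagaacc
MCM3: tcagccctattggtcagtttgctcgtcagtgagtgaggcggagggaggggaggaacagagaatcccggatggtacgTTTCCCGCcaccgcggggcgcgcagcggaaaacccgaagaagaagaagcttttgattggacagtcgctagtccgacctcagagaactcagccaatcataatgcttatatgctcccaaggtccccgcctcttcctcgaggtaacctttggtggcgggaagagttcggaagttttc
H2BC3: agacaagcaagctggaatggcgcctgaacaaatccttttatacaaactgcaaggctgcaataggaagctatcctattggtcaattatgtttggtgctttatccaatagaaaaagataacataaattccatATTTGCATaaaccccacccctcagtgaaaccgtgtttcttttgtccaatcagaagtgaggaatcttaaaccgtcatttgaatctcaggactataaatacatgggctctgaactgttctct

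Matches were common in these lists and did not separate called from uncalled members. Of the genes tested, 11386 matched a promoter in the table. The pair of GAAA copies stood in 2.54% of them and in 3.07% of all promoters of the table. Within the interferon list it stood in 8 of 14 promoters of genes that fell (57.1%) and in 18 of 31 of genes not called (58.1%). TTTCCCGC stood in 1.91% of promoters of genes tested, in 5 of 25 of the S phase genes that rose and in 2 of 12 of those not called. MCM3, with a match starting 174 bases before its start, rose by 0.57 (SE 0.11, limma adjusted p = 0.00679). ATTTGCAT stood in 1.54% of promoters of genes tested, and in 8 of 19 of the histone genes that rose and 8 of 19 of those not called. CCAAT stood in 34.7% of promoters of genes tested, in 41.5% of those of all rises and in 31.9% of those of all falls. A match describes these letters only and shows no binding.

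RIGI and IFIH1, which encode sensors of double-stranded RNA, fell. In the list of sensing and interferon signalling, 6 of 32 genes fell (18.8%) and 2 rose (6.25%), beside 8.28% falls and 7.00% rises over all genes. RIGI, the sensor of uncapped double-stranded RNA, was 6.61, 6.90 and 6.72 on NT, 5.67, 5.87 and 5.80 on NC and 6.58, 6.70 and 6.81 on miR-520f arrays. It fell by 0.96 with the control mimic (SE 0.096, limma adjusted p = 0.000111), without overlap, and was back at the NT level with miR-520f. IFIH1, the gene of the sensor MDA5, fell by 0.48 and IRF9, the DNA-binding part of the type I interferon transcription factor, by 0.78. The interferon-gamma receptor gene IFNGR2 fell by 0.44, whereas the kinase gene JAK1 rose by 0.44 and the feedback inhibitor SOCS3 by 0.42. IFNB1, the interferon-beta gene, was at the bottom of the scale on NT arrays (2.51) and was not called (0.018, limma adjusted p = 0.937). EIF2AK2, the PKR gene, was not called either (-0.14, limma adjusted p = 0.65). Both were picked after their values were known.

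Of 33 inflammatory genes of the NF-kappaB list, 6 fell (18.2%) and 2 rose (6.06%), beside 8.28% falls and 7.00% rises over all genes. Besides CCL2, NFKBIA, the inhibitor that NF-kappaB itself induces, was 8.41, 8.51 and 8.37 on NT, 7.63, 7.67 and 7.74 on NC and 7.27, 7.60 and 7.51 on miR-520f arrays (difference -0.75, limma adjusted p = 0.000354). TNFAIP2 fell by 0.82 and the urokinase gene PLAU by 0.65. IRAK2, a kinase of interleukin-1 and Toll-like receptor signalling, rose by 0.58, and TNIP1, which restrains NF-kappaB, by 0.35. Both rises turned to falls against NT with miR-520f (-2.17 and -0.29).

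Genes of the microRNA machinery were among those that rose. Of 28 measured, 10 rose (35.7%) and 2 fell (7.14%), where 7.00% of all genes rose and 8.28% fell. DICER1, the nuclease that cuts microRNA precursors, was 8.08, 8.26 and 8.09 on NT, 9.20, 9.48 and 9.70 on NC and 8.40, 8.38 and 8.49 on miR-520f arrays. It rose by 1.31 (SE 0.11, limma adjusted p = 4.88e-05) and counted as back at the NT level with miR-520f, although those arrays lay above the NT arrays, by 0.28 on average. The Argonaute gene AGO4 was 6.55, 6.57 and 6.49 on NT and 7.41, 7.41 and 7.31 on NC arrays (difference 0.84, SE 0.086, limma adjusted p = 0.000126) and was also back. AGO2, which carries the slicing activity, read 7.06, 7.24 and 6.95 on NT and 7.24, 7.61 and 7.62 on NC arrays. These overlapped, and its call (difference 0.40, limma adjusted p = 0.0344) was lost in 8 of the 18 other settings. CNOT7, a deadenylase, fell by 0.97, and DGCR8, the partner of DROSHA, by 0.32, both back with miR-520f. Of the 12 called genes 7 were back at the NT level, beside 28.0% of all called genes, but without NC replicate 1 only 3 were and 4 were opposite.

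The stress lists held both rises and falls, to be read beside 7.00% rises and 8.28% falls over all genes. Small counts of this kind were sensitive to single arrays: 31 of the 62 counts of rises or falls in the lists moved by over 1.5 times in at least 1 fit without an array, none of them above 7 apart from the G2 and M phase and histone rises. Among p53 targets 7 of 22 rose (31.8%) and 3 fell (13.6%): the stress sensor SESN2 rose by 1.11, the translesion polymerase POLH by 0.82 and the death receptor TNFRSF10B by 0.74, while TP53I3 fell by 0.71. In the integrated stress response 6 of 28 rose (21.4%) and 2 fell (7.14%), with the cystine transporter SLC7A11 up by 0.76 and the tryptophanyl-tRNA synthetase WARS1 down by 0.55. Of 22 chaperones of the endoplasmic reticulum 5 rose (22.7%) and 4 fell (18.2%). DNAJB9, an inhibitor of the sensor IRE1, rose by 0.92, and the degradation factor SEL1L fell by 0.85 besides PDIA4. Heat shock genes gave 2 rises (11.1%) and 5 falls (27.8%) among 18, with HSP90AA1, the inducible HSP90, at 11.27, 11.39 and 11.64 on NT and 10.72, 10.70 and 10.84 on NC arrays and back at the NT level with miR-520f. Its fall was 0.68 (SE 0.10, limma adjusted p = 0.00123).

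In fatty acid and membrane lipid synthesis 7 of 24 genes fell (29.2%) and 2 rose (8.33%), beside 8.28% falls and 7.00% rises over all genes. FASN, the fatty acid synthase, was 7.90, 7.90 and 7.80 on NT, 7.09, 7.18 and 6.98 on NC and 7.23, 7.18 and 6.96 on miR-520f arrays and thus moved alike with both mimics (differences -0.78 and -0.74). SPTLC2, which starts sphingolipid synthesis, fell by 0.97 and ACACA, which makes malonyl-CoA, by 0.66, both back with miR-520f. Cholesterol synthesis gave 4 falls (23.5%) and 3 rises (17.6%) among 17, with INSIG1, which holds SREBP in place, up by 0.78 and LSS, lanosterol synthase, down by 0.59. Of 31 lysosomal and endosomal genes 6 fell (19.4%) and 0 rose in limma, to be read beside the same 8.28% and 7.00%. At an unadjusted p under 0.05 the counts were 8 and 0, where 3681 of all 14232 genes passed in either direction. Without moderation they were 4 and 0, beside 751 falls and 536 rises over all genes. EEA1, the tether of early endosomes, fell from 5.61, 5.51 and 5.59 to 4.48, 4.46 and 4.73 (difference -1.01, SE 0.082, limma adjusted p = 3.51e-05) and was 5.74, 5.75 and 5.72 with miR-520f. The acid lipase LIPA fell by 0.94 and was moved alike. Autophagy genes gave 4 falls (19.0%) and 2 rises (9.52%) among 21, led by the protease ATG4A (-0.80) and the lipid scramblase ATG9A (0.62).

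The next lists are likewise set beside 8.28% falls and 7.00% rises over all genes. Of 27 hypoxia and glycolysis genes 6 fell (22.2%) and 0 rose in limma, with the peptide hormone ADM down by 0.53 and hexokinase HK1 by 0.43. At an unadjusted p under 0.05 the counts were 9 and 1, where 3681 of all 14232 genes passed in either direction. Without moderation they were 3 and 0, beside 751 falls and 536 rises over all genes. With each array centred on its median 1 gene of this list rose. Immediate early genes gave 4 rises (19.0%) and 1 fall (4.76%) among 21, with the matricellular gene CCN1 up by 0.65 and back at the NT level. MAPK feedback genes gave 5 rises (22.7%) and 1 fall (4.55%) among 22, in which the ETS factors ETV1 (0.64) and ETV4 (0.64) rose and the inhibitor SPRY1 (-0.54) fell. YAP targets gave 5 rises (23.8%) and 2 falls (9.52%) among 21, with ANKRD1 up by 0.77. Oxidative stress genes gave 2 of each (11.1%) among 18, including a fall of 0.78 in HMOX1, haem oxygenase 1. Ribosomal protein genes gave 1 of each among 18 (5.56%), below the share over all genes in both directions. Oxidative phosphorylation gave 1 rise (2.78%) and 4 falls (11.1%) among 36.

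**Figure D4:**
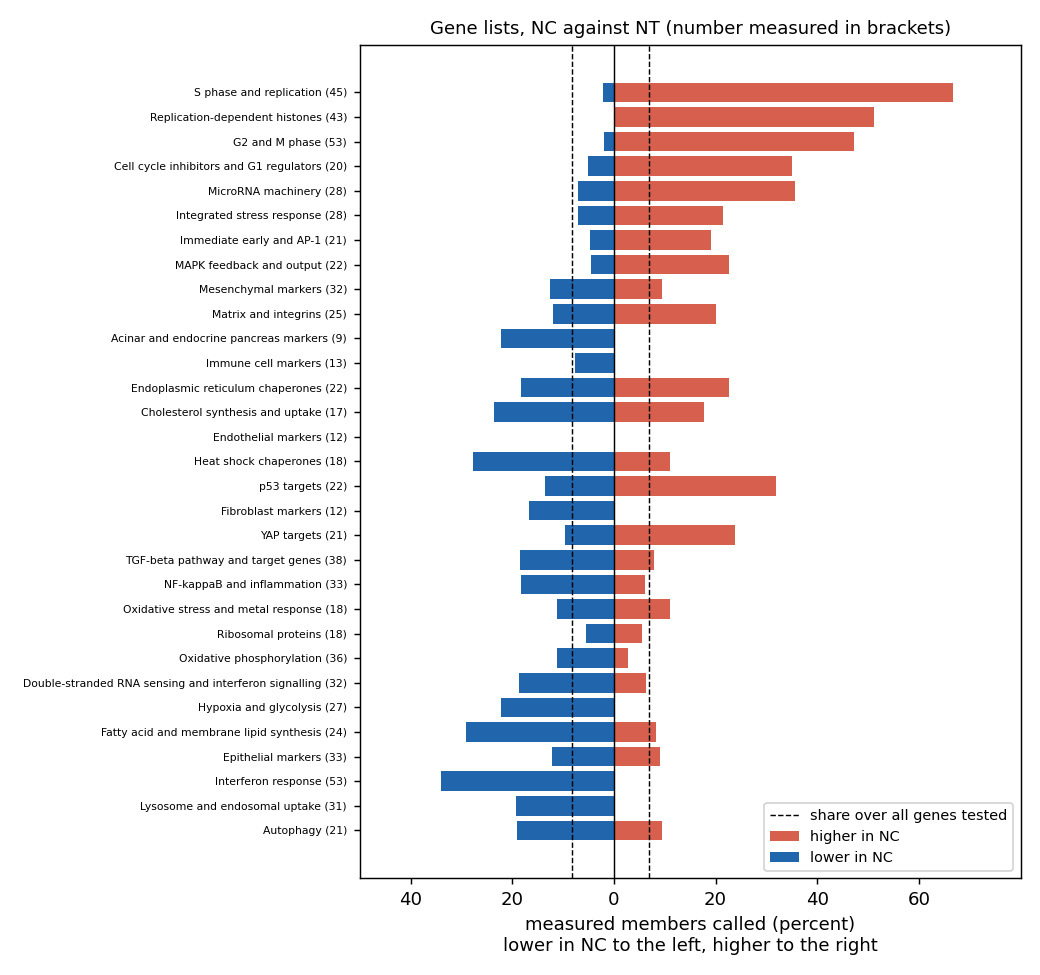
Share of the measured members of 31 gene lists called higher (red, right) or lower (blue, left) with the control mimic, in percent, with the number measured in brackets and dashed lines at the shares over all genes tested (7.00% and 8.28%). The S phase, histone and G2 and M phase lists reach farthest to the right, and the interferon list farthest to the left.

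Genes of adhesion, matrix and TGF-beta moved in both directions. In the TGF-beta list 7 of 38 fell (18.4%) and 3 rose (7.89%), where 8.28% of all genes fell and 7.00% rose. SMAD3, a signal transducer of the pathway, was 10.24, 10.32 and 10.23 on NT and 9.42, 9.68 and 9.65 on NC arrays (difference -0.68, SE 0.085, limma adjusted p = 0.000393), and the ligand gene TGFB1 fell by 0.60, while TGFBR2 rose by 1.08. The falls of this list numbered 4 with arrays centred on the median. Epithelial markers gave 4 falls (12.1%) and 3 rises (9.09%) among 33, led by the tight junction gene CLDN1, which went from 6.82, 6.82 and 6.61 to 5.37, 5.50 and 5.18 (difference -1.40). Centring left 1 fall there. E-cadherin (CDH1) was not called (-0.078, limma adjusted p = 0.642), nor was VIM (0.0053, limma adjusted p = 0.985). Mesenchymal markers gave 4 falls (12.5%) and 3 rises (9.38%) among 32, with the surface glycoprotein THY1 down by 1.55, the receptor kinase AXL up by 0.64 and the fibronectin receptor subunit ITGA5 up by 1.03. THY1 and COL1A1 (-0.59) were also the 2 falls among 12 fibroblast markers (16.7%), and COL1A1 was lost in 10 of the 18 other settings. In matrix and integrins 5 of 25 rose (20.0%) and 3 fell (12%). CD68 (-0.41) was the only call among 13 immune markers (7.69%), and it was lost in 6 of these 18 settings. CHGB (-0.42) and SYP (-0.60) were the calls among 9 acinar and endocrine markers (22.2%), lost in 2 and 6 of the settings. CHGB was dim (mean 4.11 on NT arrays). Of 12 endothelial markers 0 were called in limma (0 at an unadjusted p under 0.05 and 0 without moderation). Whether these genes reflect other cells was not tested.

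Reference genes often used for normalization did not all stay level. ACTB, beta-actin, was 13.17, 13.20 and 13.26 on NT and 13.23, 13.18 and 13.11 on NC arrays (difference -0.038, limma adjusted p = 0.879). TBP, the TATA-binding protein gene, was 8.68, 8.59 and 8.62 on NT, 8.26, 8.21 and 8.10 on NC and 9.25, 9.20 and 9.36 on miR-520f arrays. NC arrays lay below and miR-520f arrays above NT (NC minus NT -0.44, limma adjusted p = 0.00256, and miR-520f minus NT 0.64). HPRT1 was not called between NC and NT (0.24, 95% interval -0.085 to 0.56, limma adjusted p = 0.376) and neither was ADAM9, a membrane protease (0.45, 95% interval 0.093 to 0.81, limma adjusted p = 0.0951). The calls ended among small differences. ZBTB3 (-0.40), ARHGEF17 (-0.27) and TGFB3 (-0.22) were the called genes nearest to the threshold, and ATG5 (0.30), FAM114A2 (0.37) and CARD8 (0.25) the nearest not called.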

How the data were processed

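The authors deposited log2 values of 22011 probe sets, covering all 9 arrays. The tools Partek 6.6 and RMA and the build hg18 are named in the submitters' processing notes, and RNA was extracted with TRIzol and labelled with a GeneChip WT PLUS kit, per the labels' protocols. RMA equalises the distributions of the arrays and shrinks differences of dim probe sets. A single symbol was held by 14432 probe sets, several by 2408, and no name was at hand here for 5171. A RefSeq gene table held the Entrez identifiers of 14404, and 197 genes had several probe sets, of which the brightest was kept. Among 34 called genes with more than 1 probe set, another was called with the same sign in 5 and the opposite sign in 1 (PINK1, named after its values were seen). The highest correlation between arrays was 0.997, and no arrays were identical.

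limma 3.58.1 (R 4.3.3) fitted 1 mean per group over all 9 arrays, with 6 residual degrees of freedom, empirical Bayes moderation and Benjamini-Hochberg adjustment over all 14232 genes, tested on simulated data. The members, the 31 gene lists and the rule for named genes were chosen with earlier results of these data known. Named genes were the 12 largest rises and falls whose arrays did not overlap, the 8 largest in each direction of genes back or moved alike, the 4 largest of the other groups, up to 4 called members of each list in each direction, the 6 genes nearest the threshold and genes fixed by name. GAPDH, fixed by name, had no probe set of its own here. Alternatives were other scalings, filters, probe set rules, moderation, thresholds and class rules, and each array left out in turn. The number of arrays limits the precision.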

Additional observations from a re-analysis of the deposited data

How the results depend on the processing

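Of the 181 called genes named, 0 changed sign under the 18 alternatives. Of all 2174 calls 1 did, PINK1 with the mean of a gene's probe sets, chosen after its values were seen. With arrays centred on the median 1198 genes were higher and 928 lower, so the balance of directions turned. Without moderation of the spread the calls were 1287 (536 higher, 751 lower), with 391 genes back at the NT level and 352 moved alike, and 16 S phase, 8 G2 and M phase and 8 histone genes rose. A difference of at least 0.5 as well left 983 calls (470 higher, 513 lower) and of at least 1 left 121 (49 and 72), and an adjusted p under 0.01 left 1142 (513 and 629), each by construction fewer. With classes set by position alone, 405 genes were back and 380 moved alike. Among the 7116 genes brighter than the median 1052 fell, 11 of them interferon genes, with most of the interferon list left out as dimmer. Leaving out an array gave 1394 to 2181 calls, 614 to 1041 higher and 780 to 1140 lower, 457 to 648 genes back and 360 to 606 moved alike, with 22 to 30 S phase, 13 to 25 G2 and M phase and 12 to 23 histone rises and 15 to 18 interferon falls. The lowest totals, the 13 and the 12 came without NT replicate 2, and 14 histone rises without NC replicate 1. The causes were not tested. With only the NC and NT arrays in the fit the calls were 1752 (849 higher, 903 lower). Of the 2174 main calls, 1709 were called again there with the same sign. In that fit 26 S phase, 19 G2 and M phase and 20 histone genes rose and 17 interferon genes fell, and the classes have no value.

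The replicate numbers of the titles paired the arrays weakly and only in part, and the main fit did not use them. Deviations of same-numbered arrays had correlations of -0.012, 0.11 and 0.16 for NT with NC. The correlations were -0.026, 0.17 and 0.098 for NT with miR-520f, and 0.084, 0.205 and 0.079 for NC with miR-520f. NC and miR-520f arrays each correlated best with their own number in the other group, where the remaining pairs reached at most 0.025. For NT with NC this did not hold throughout, and NT replicate 1 with NC replicate 2 reached 0.33. With a replicate block the calls were 2297 (1073 higher, 1224 lower), 635 genes were back, 592 were moved alike and 28 histone genes rose.

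Of these 181 genes, 123 kept their call under all 18 alternatives and 58 lost it under at least 1.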

Other observations

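Probe sets with several gene symbols or none were not used in the comparison. Fitted with all others, 198 of these 7579 probe sets were higher and 192 lower with the control mimic, or 5.15% called.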
